A study of Caenorhabditis elegans with 80 samples.

Results

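Genes for proteins of pre-mRNA splicing, with some related RNA-binding proteins, were followed in Caenorhabditis elegans over adult age and in a daf-16 mutant. The set holds every gene whose symbol is rsp-, snr-, rnp-, prp- or lsm- followed by a number, with sfa-1, uaf-1 and uaf-2 added. These are 47 of the 46904 genes in the count table, and the rule reads symbols alone, not measured values. They are called splicing genes below, though the symbols also take in lsm-1 of a messenger RNA decay ring and rnp-8, the partner of a poly(A) polymerase. By role they are 8 SR and SR-related protein genes (rsp), 3 genes for proteins that read the branch point and the 3' splice site (sfa-1, uaf-1, uaf-2), 7 Sm ring genes (snr), 7 Lsm ring genes (lsm), 9 genes for proteins with RNA recognition motifs (rnp) and 13 PRP genes (prp). All 47 passed the filter on low counts in every fit.

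Splicing removes introns from a pre-mRNA in a large complex, the spliceosome, which assembles from small nuclear ribonucleoproteins (snRNPs) around each intron. Sm proteins form a ring on most spliceosomal small nuclear RNAs, Lsm proteins form a related ring on the U6 RNA or, with another subunit, on messenger RNA bound for decay, and PRP proteins drive assembly and catalysis. SR proteins bind exons and help choose splice sites, and in worms sfa-1, the branch point binding protein gene, is known for its part in lifespan extension by dietary restriction.

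RNA from whole hermaphrodite worms was sequenced in 80 libraries. Wild-type N2 worms were sampled at days 6, 8, 11, 14 and 18, with 6 libraries per age. The mutant strain CF1038, which carries the mu86 allele of the FOXO transcription factor gene daf-16, was sampled at day 6 in 20 libraries, and its controls were 30 further N2 libraries of day 6 (the second N2 set). All groups were kept at 20 °C on NGM agar with OP50-1 Escherichia coli and streptomycin, and all received FUDR, an inhibitor of DNA synthesis that keeps adults apart from progeny and also acts on dividing germ cells. Whether libraries of a group came from different cultures is not stated, and p-values then reflect library spread, which may be technical.

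The total count per library ran from 34.4 to 44.2 in units of 1e+06. In CF1038 daf-16 stood at 75.5 to 107 CPM, counts scaled to a library total of 1e+06, with every library below the second N2 set, which ran from 134 to 191. Of the marker lists for germline and oocyte, sperm, muscle, intestine, hypodermis and neurons, no gene was at 0 in all libraries of a group. The sperm list holds only the major sperm protein genes that passed the filter on low counts of each fit, so for sperm this was partly fixed in advance. Libraries 1 to 3 and 4 to 6 did not overlap in part of the 47 genes at every age. The first 3 lay wholly below the last 3 in 9, 7, 22, 25 and 13 genes at days 6, 8, 11, 14 and 18. They lay wholly above in 6 genes at day 6 and 1 at each older age. The shares of all genes separated in this way are not given here, so these counts do not set the splicing genes apart. Whether they exceed a chance split was not tested. The age results are therefore also given for each of these sets of libraries alone.

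Levels per kilobase of annotated exon at day 6 spread over more than 2 orders of magnitude. The highest was snr-2, which encodes SmB, at 410 ± 25.5 CPM per kb (SD, n = 6). It was followed by rsp-3, the homologue of the human SR protein ASF/SF2, and by rnp-4, which encodes the exon junction complex protein Y14. Their levels were 327 ± 19.9 and 310.1 ± 16.3 CPM per kb. The lowest was rnp-9 at 1.87 ± 0.318 CPM per kb, far under prp-18, the next lowest, at 26.2 ± 2.21. In the plot of levels per exon length, 8 of the 10 highest genes are Sm or SR genes and 8 of the 10 lowest are PRP genes.

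**Figure D1:**
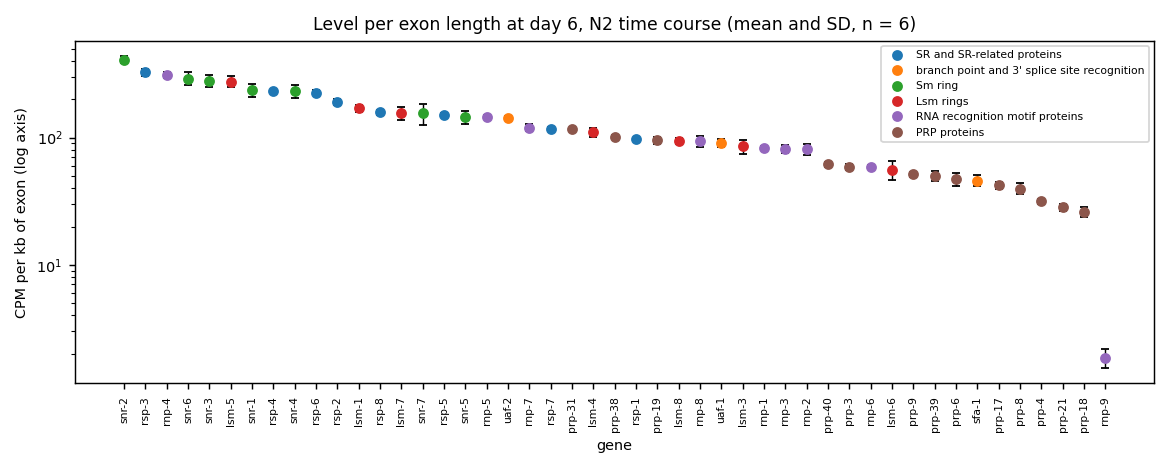
Level of each of the 47 genes at day 6 in the N2 time course, in CPM per kb of exon on a log axis, ordered from high to low and coloured by role (mean and SD of 6 libraries). The Sm gene snr-2 is highest at 410 CPM per kb and rnp-9 lowest at 1.87.

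Counts per library ranged from 50 for rnp-9 to 25640 for rsp-3. Only the gene level was deposited, and 28 of the 47 genes have a single annotated transcript, while rsp-1 has the most with 6. Shifts between isoforms, which several SR genes are known to make, therefore cannot be seen here. For lsm-4, 247 exon bases, or 40.6 percent of its exon length, lie under ada-2 on the opposite strand, and its estimated counts were not whole in 98.75 percent of libraries, so its values are uncertain. No other gene of the set shares over 20 percent of its exon bases with another gene.

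Over age, the commonest course, held by 21 of the 47 genes, was a highest mean at day 6 and a lowest at day 14. How common this course is among all genes is not given here. A gene was called higher or lower at an adjusted p under 0.05 in edgeR's quasi-likelihood test, with Benjamini-Hochberg adjustment over all genes tested. Against day 6, no gene was higher and 5 were lower at day 8, where 5.56 percent of all genes tested were higher and 6.1 percent lower. At day 11, 26 were lower and none higher, against 19.9 and 24.1 percent of all genes. At day 14, 34 were lower and 1 higher, against 26.9 and 29.8 percent. At day 18, 14 were lower and 4 higher, against 28 and 29 percent. With all 30 libraries in 1 fit the count of lower genes was thus largest at day 14 and smaller again at day 18, but this order depended on the fit. With the 12 libraries of each comparison fitted alone, the counts of lower genes were 15, 35, 24 and 20 at days 8, 11, 14 and 18, largest at day 11, where 12.4, 26.3, 20.5 and 30.9 percent of all genes were lower. In libraries 4 to 6 alone, days 11 and 14 had 15 and 14.

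The median log2 change of the 47 genes was -0.11 at day 8, -0.30 at day 11, -0.35 at day 14 and -0.13 at day 18. Over all 16710 genes tested the medians were -0.018, 0.029, 0.006 and -0.011. Of the 47 genes, 34 had their lowest mean at day 14, while 26 had their highest at day 6 and 15 at day 18. Both lowest at day 14 and highest at day 18 were 10. No share of all genes is given for these counts, so they do not set the splicing genes apart. A joint test of any difference among the ages passed for 41 genes, where 80.2 percent of all genes passed. Because whole worms were used, fewer cells of a type and less RNA per cell cannot be told apart.

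**Figure D2:**
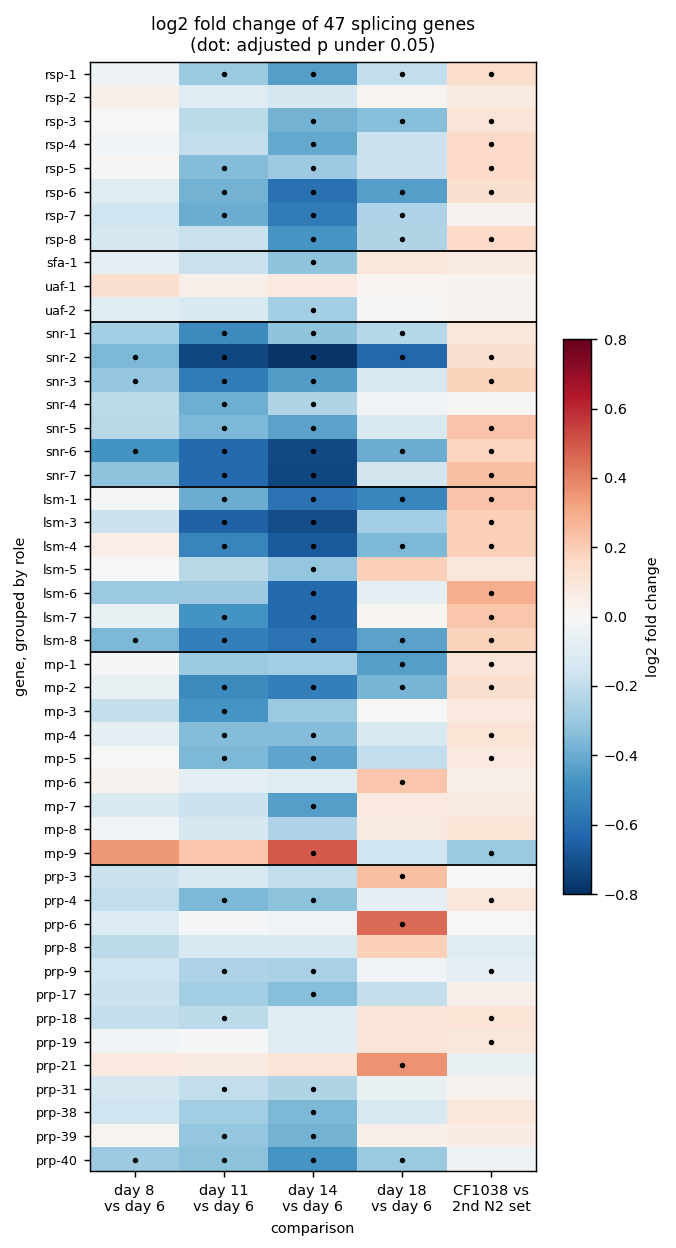
Log2 fold change of each gene at 4 ages against day 6 in N2 and in CF1038 against the second N2 set, with blue for lower and red for higher. Dots mark an adjusted p under 0.05, and the count of lower genes goes from 5 at day 8 to 26, 34 and 14 at days 11, 14 and 18.

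Among the SR genes, 4 of 8 were called lower at day 11, 7 at day 14 and 5 at day 18. At day 11 all libraries lay below all of day 6 for 6 of the 8. At days 14 and 18 the lowest log2 value among them was that of rsp-6, which encodes an SR protein of the SRp20 kind, and at day 11 that of rsp-7. The gene rsp-6 stood at 263 to 298 (median 282) CPM at day 6, 201 to 221 (median 219.6) at day 11, 144 to 228 (median 177) at day 14 and 192 to 224 (median 204) at day 18. All libraries of these older ages were below all of day 6. The change was log2 -0.60 ± 0.08 SE, adjusted p = 2.97e-07 at day 14 and log2 -0.44 ± 0.08 SE, adjusted p = 2.89e-05 at day 18.

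The SR-related gene rsp-7 ran from 204 to 221 (median 212) CPM at day 6 to 114 to 170.1 (median 149) at day 14 and 169 to 195 (median 178) at day 18, again with no overlap between an older age and day 6. It fell by 32.2 percent at day 14 (log2 -0.56 ± 0.07 SE, adjusted p = 7.65e-08) and by 15.6 percent at day 18 (adjusted p = 0.00388). For rsp-3 the values were 493 to 577 (median 532) CPM at day 6, 310.2 to 533 (median 390.1) at day 14 and 381 to 460.2 (median 415) at day 18. Day 14 overlapped day 6 while day 18 did not, and the changes were -0.38 (adjusted p = 0.00108) and -0.34 (adjusted p = 0.00321) on the log2 scale.

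For rsp-1 day 6 was tight at 222 to 232 (median 228) CPM, and day 14 was wide at 130.2 to 206 (median 164). All day 14 libraries were lower, with log2 -0.44 ± 0.09 SE, adjusted p = 7.98e-05. Its fall at day 18 (adjusted p = 0.048) was lost on leaving out any 1 of 10 of the 12 libraries compared, at adjusted p of 0.0574 to 0.0941. The gene for a TRA2-like protein, rsp-8, ran from 175 to 199 (median 188) CPM at day 6 to 102 to 173 (median 133) at day 14, with no overlap (log2 -0.47 ± 0.09 SE, adjusted p = 7.56e-05). At day 18 it was at 133 to 182 (median 162), overlapping day 6, and the call (adjusted p = 0.0302) was lost without library 1 or 6 of day 6 or library 2 or 4 of day 18, at 0.0552 to 0.0907.

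The SC35 homologue rsp-4 stood at 246 to 259.5 (median 253) CPM at day 6 and 132 to 267 (median 183) at day 14, where the single highest library exceeded all of day 6. It was called lower at day 14 only (log2 -0.41 ± 0.11 SE, adjusted p = 0.00207). Its day 11 libraries, at 210 to 227 (median 220) CPM, all lay below day 6 but did not pass. For rsp-5 the levels were 152 to 167 (median 162) CPM at day 6, 119 to 135 (median 125) at day 11 and 86.7 to 187 (median 124) at day 14. Every day 11 library was below day 6 (adjusted p = 0.0118), and the day 14 call (adjusted p = 0.0283) was lost without library 1, 2 or 3 of that age, at 0.0662, 0.0888 and 0.0956.

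The remaining SR gene, rsp-2, passed at no age. Its levels were 194 to 226 (median 202) CPM at day 6, 129.6 to 257 (median 178) at day 14 and 183 to 239 (median 203) at day 18, and its day 14 change had a 95 percent interval of -0.36 to 0.09 on the log2 scale. Without library 5 of day 14 it was -0.25 and passed, at adjusted p = 0.0400.

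Of the genes for branch point and 3' splice site recognition, sfa-1 and uaf-2 were called lower at day 14 alone and uaf-1 passed at no age. The SF1 homologue sfa-1 stood at 116 to 144 (median 129) CPM at day 6, 86.2 to 121 (median 103) at day 14 and 119 to 162 (median 138) at day 18. The day 14 change was log2 -0.32 ± 0.09 SE, adjusted p = 0.00303, and day 18 was higher than day 14 by log2 0.41 (adjusted p = 0.000298). For uaf-2, the small subunit of the splicing factor U2AF, the levels were 143 to 157 (median 149.5), 107 to 137 (median 122) and 141 to 168 (median 148) CPM at the same ages. Its day 14 libraries lay below all of day 6 and all of day 18, with log2 -0.27 ± 0.07 SE, adjusted p = 0.000984 against day 6.

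The large U2AF subunit gene uaf-1 ranged from 145 to 177 (median 155) CPM at day 6 to 136 to 223 (median 165) at day 14 and 142 to 179 (median 157) at day 18. The groups overlapped throughout. The 95 percent intervals of its log2 change were -0.10 to 0.26 at day 14 and -0.16 to 0.20 at day 18. Thus the 2 subunits of U2AF had log2 changes of 0.08 and -0.27 at day 14, a difference between genes that was not tested.

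**Figure D3:**
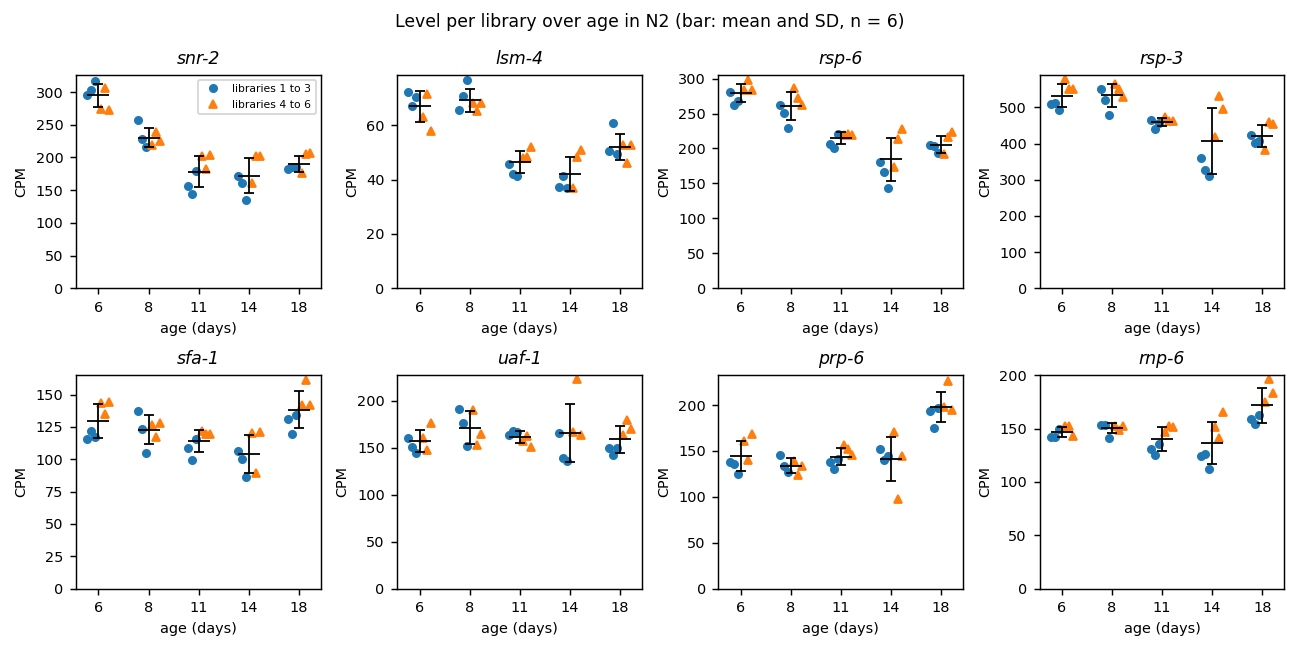
CPM of 8 genes in each N2 library against age in days, with circles for libraries 1 to 3, triangles for libraries 4 to 6 and bars for the mean and SD of 6. For snr-2 and rsp-6 every library at days 11, 14 and 18 lies below day 6, while for prp-6 every library at day 18 lies above it.

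Sm ring genes made up 3 of the 5 genes that fell at day 8 (snr-2, snr-3 and snr-6). All 7 Sm genes fell at days 11 and 14, and 3 at day 18 (snr-1, snr-2 and snr-6). Their median log2 change was -0.31, -0.56, -0.45 and -0.15 at the 4 ages. SmB gene snr-2 stood at 272 to 318 (median 299.7) CPM at day 6, 216 to 257 (median 226) at day 8, 145 to 204 (median 181) at day 11, 135 to 203 (median 166) at day 14 and 176 to 207 (median 185) at day 18. No library of an older age reached the lowest of day 6.

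On the log2 scale snr-2 changed by -0.36 at day 8 (adjusted p = 0.00991), -0.73 at day 11 (1.97e-07), -0.78 at day 14 (1.58e-08) and -0.63 at day 18 (4.48e-07), each with an SE of 0.09. This was the lowest value of the 47 genes at days 11, 14 and 18. SmE gene snr-6 ran from 102 to 137 (median 124) CPM at day 6 to 71.8 to 93.4 (median 87.1) at day 8 and 56.0 to 91.8 (median 69.9) at day 14, both below all of day 6. It fell by 28.5 percent at day 8 (log2 -0.48 ± 0.10 SE, adjusted p = 0.0022), the lowest log2 value of the set at that age, and by 39.4 percent at day 14 (log2 -0.72 ± 0.10 SE, adjusted p = 5.95e-07).

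SmD1 gene snr-3 went from 148 to 204 (median 178) CPM at day 6 to 136 to 147 (median 142) at day 8 with no overlap (log2 -0.31 ± 0.10 SE, adjusted p = 0.0353). SmG gene snr-7 went from 53.8 to 87.1 (median 79.8) CPM at day 6 to 37.4 to 61.8 (median 42.6) at day 14, where the groups overlapped (log2 -0.73 ± 0.14 SE, adjusted p = 4.49e-05). In snr-7 libraries 4 and 6 of day 6 lay well under the other 4. The SmD3, SmD2 and SmF genes snr-1, snr-4 and snr-5 changed by log2 -0.32, -0.24 and -0.43 at day 14, all with overlap, and snr-4 had an adjusted p of 0.0489.

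Of the Lsm genes, 1 of 7 fell at day 8 (lsm-8), 5 at day 11, 7 at day 14 and 3 at day 18 (lsm-1, lsm-4 and lsm-8). Their median log2 change at day 14 was -0.62, the lowest of the 6 roles. The gene for the subunit that marks the nuclear U6 ring, lsm-8, ran from 50.6 to 58.1 (median 53.2) CPM at day 6 to 36.4 to 46.1 (median 41.8) at day 8, 26.8 to 47.9 (median 32.3) at day 14 and 35.7 to 42.2 (median 40.1) at day 18. All older libraries were below all of day 6, and the log2 change was -0.36 at day 8 (adjusted p = 0.0146), -0.59 at day 14 (6.67e-06) and -0.43 at day 18 (0.000397).

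Its counterpart in the cytoplasmic decay ring, lsm-1, stood at 84.9 to 98.3 (median 88.2) CPM at day 6, 82.3 to 94.9 (median 89.3) at day 8, 47.8 to 73.2 (median 56.9) at day 14 and 55.4 to 69.6 (median 62.1) at day 18. Day 8 overlapped day 6 and the later ages did not. The changes were log2 -0.59 ± 0.08 SE, adjusted p = 1.48e-07 at day 14 and log2 -0.52 ± 0.08 SE, adjusted p = 1.13e-06 at day 18. For lsm-4, whose exons are shared as given above, the range was 57.8 to 72.2 (median 68.7) CPM at day 6 and 36.9 to 51.0 (median 39.2) at day 14, without overlap (log2 -0.67 ± 0.09 SE, adjusted p = 9.4e-08).

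Of the 7 Lsm genes, 5 were higher at day 18 than at day 14, all of them subunits common to both rings. For lsm-7 the levels were 56.2 to 75.5 (median 67.5) CPM at day 6, 35.6 to 54.6 (median 39.4) at day 14 and 58.2 to 76.3 (median 66.3) at day 18. Day 14 lay wholly below both, with log2 -0.62 ± 0.10 SE, adjusted p = 2.85e-06 against day 6, and day 18 was higher than day 14 by log2 0.64 (adjusted p = 3.84e-06). For lsm-5 and lsm-6 day 18 was higher than day 14 by 0.50 (adjusted p = 7.74e-05) and 0.55 (adjusted p = 0.00063), while lsm-1 and lsm-8 had 0.08 and 0.16 and did not pass.

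Genes of the rnp group had no common course. At day 14, 4 of 9 fell (rnp-2, rnp-4, rnp-5 and rnp-7), 1 rose (rnp-9) and 4 did not pass. The U1 snRNP 70K gene rnp-7 stood at 134 to 158 (median 152) CPM at day 6, 96.1 to 132 (median 109) at day 14 and 145 to 176 (median 155) at day 18. Day 14 was below both of the others without overlap (log2 -0.44 ± 0.08 SE, adjusted p = 2.7e-05 against day 6). Among the rest, rnp-2, of the kind that binds U1 or U2 RNA, had -0.55 and rnp-5, the RNPS1 homologue, -0.42, and the Y14 gene rnp-4 -0.35 on the log2 scale.

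The PUF60 homologue rnp-6 was one of 4 genes of the set that rose at day 18. It stood at 142 to 152 (median 147) CPM at day 6, 112 to 166 (median 134) at day 14 and 154 to 196 (median 169) at day 18, where every library exceeded every day 6 library (log2 0.22 ± 0.08 SE, adjusted p = 0.0153). At the very low level of rnp-9 the values were 1.86 to 3.18 (median 2.86) CPM at day 6, 2.15 to 4.78 (median 3.98) at day 14 and 2.17 to 2.74 (median 2.46) at day 18. The groups overlapped, and the change was log2 0.49 ± 0.16 SE, adjusted p = 0.0113 at day 14. The partner of the germline poly(A) polymerase GLD-2, rnp-8, passed at no age, and its day 14 interval was -0.51 to 0.02.

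Of the PRP genes 7 of 13 fell at day 14, with a median of -0.24. At day 18, 3 had risen and 1, prp-40, had fallen. The tri-snRNP gene prp-6 ran from 124 to 169 (median 139) CPM at day 6 and 97.7 to 170.4 (median 145) at day 14 to 176 to 227 (median 196) at day 18. All day 18 libraries were above all others of both ages, and the change was log2 0.45 ± 0.09 SE, adjusted p = 0.000131 against day 6, the highest of the set. For prp-21, an SF3A subunit gene, the levels were 54.2 to 63.0 (median 59.0) CPM at day 6 and 63.5 to 92.8 (median 75.1) at day 18, also without overlap (log2 0.36 ± 0.09 SE, adjusted p = 0.00123).

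A second tri-snRNP gene, prp-3, rose at day 18 (log2 0.24 ± 0.09 SE, adjusted p = 0.0196) from 105 to 126 (median 117) to 118 to 159 (median 138) CPM, with overlap. That call was lost without library 1 of day 6 or library 5 of day 18, at adjusted p of 0.0516 and 0.0517. The U1-associated gene prp-40 moved the other way, from 129 to 150 (median 141) CPM at day 6 to 78.6 to 122 (median 104.1) at day 14 and 107 to 125 (median 113) at day 18. Both older ages were wholly below day 6, with log2 -0.47 (adjusted p = 5.71e-05) and -0.30 (adjusted p = 0.00574).

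The U5 core gene prp-8 and prp-19, which gives its name to a complex that activates the spliceosome, passed at no age. Their 95 percent intervals at day 18 were -0.03 to 0.42 and -0.10 to 0.29 on the log2 scale. At day 14 the tri-snRNP genes prp-4 and prp-31 had -0.33 and -0.24, the U1-associated prp-39 -0.38 and the SF3A gene prp-9 -0.26, all lower.

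Across the ages, 4 genes fell at every age after day 6 (lsm-8, prp-40, snr-2 and snr-6). At the other end, 5 passed at none (prp-8, prp-19, rnp-8, rsp-2 and uaf-1). These comparisons share the day 6 libraries. The shares of all genes with these courses are not given here, so the counts do not set the splicing genes apart.

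Separation of all libraries was counted apart from the test. All 6 libraries lay below all 6 of day 6 for 7 genes at day 8, 25 at day 11, 13 at day 14 and 9 at day 18, where the shares among all genes were 3.61, 14.5, 9.89 and 18.6 percent. All lay above for 3 genes at day 18 (prp-6, prp-21 and rnp-6), where the share was 21.9 percent. At days 8, 11 and 14 no gene of the set lay wholly above, against 5.49, 14.7 and 15.5 percent of all genes. The spread was widest at day 14: the median coefficient of variation of the 47 genes was 19.1 percent there and 6.21 to 8.91 percent at the other ages. Over all genes it was 26.5 and 14.6 to 16.9 percent.

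That spread at day 14 lay in part between libraries 1 to 3 and 4 to 6, whose values still overlapped in 21 of the 47 genes. Per library, the median log2 ratio of the 47 genes to their day 6 means was -0.49, -0.58 and -0.78 in libraries 1 to 3 and -0.34, -0.11 and -0.10 in libraries 4 to 6. In libraries 1 to 3 alone against the same numbers of day 6, 41 genes were lower and 1 higher, and the median log2 change was -0.63. In libraries 4 to 6 alone, 14 were lower and none higher, with a median of -0.17. In these fits 33.3 and 17.1 percent of all genes were lower, and 33.3 and 20.8 percent higher. All 14 genes were among the 34 and among the 41, and the difference between the sets was not tested.

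Called in both sets at day 14 were lsm-1, lsm-4, lsm-6, lsm-7, lsm-8, prp-40, rnp-7, rsp-1, rsp-6, rsp-7, rsp-8, sfa-1, snr-2 and snr-6. For snr-2 the log2 change was -0.99 in libraries 1 to 3 and -0.60 in libraries 4 to 6. For sfa-1 it was -0.30 and -0.36, close to equal. In contrast rsp-4 had -0.80 and -0.13, and rsp-5 -0.65 and -0.02, and neither passed in libraries 4 to 6. The rise of rnp-9 was 0.80 in libraries 1 to 3 and 0.14, not passed, in libraries 4 to 6.

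**Figure D4:**
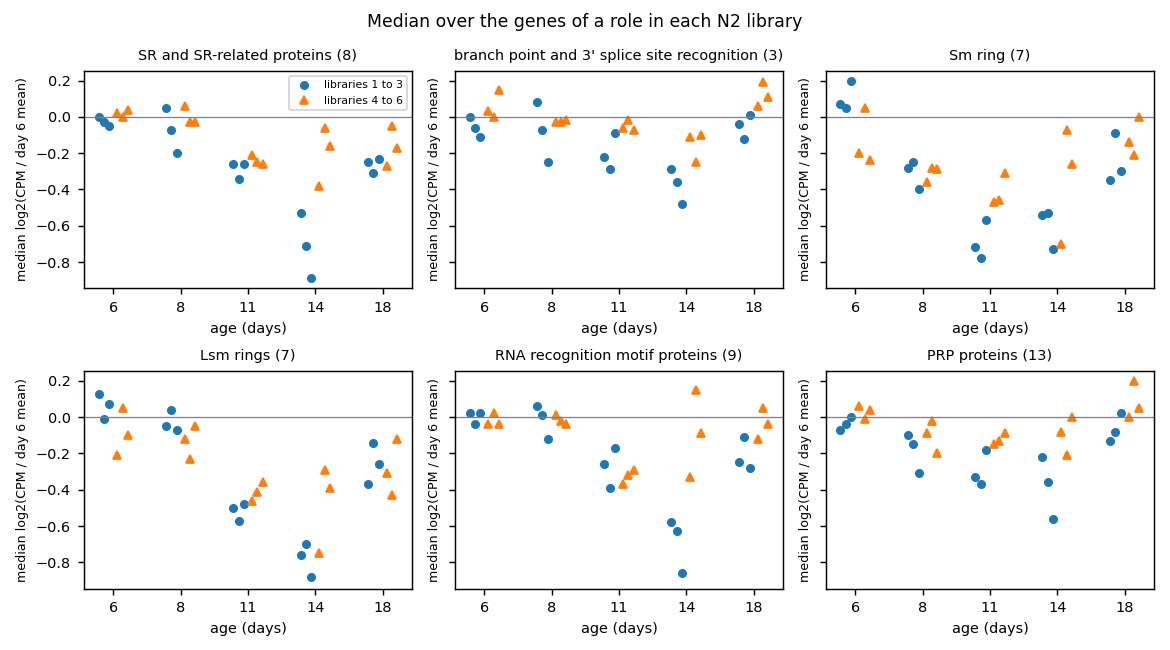
Median over the genes of each role of log2(CPM / day 6 mean) in each N2 library against age in days, with circles for libraries 1 to 3 and triangles for libraries 4 to 6. At day 14 the SR genes stand at -0.89 to -0.53 in libraries 1 to 3 and at -0.38 to -0.06 in libraries 4 to 6, and by day 18 the sets lie closer.

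Germline and oocyte markers also differed between the sets of libraries at day 14. The summed level of the 22 listed genes was 9843 to 11690 CPM (median 10620) at day 6, 9032 to 12040 (median 11220) at day 8 and 8791 to 9874 (median 9487) at day 11. At day 14 it was 4952 to 7622 in libraries 1 to 3 and 8304 to 10490 in libraries 4 to 6, and at day 18 7354 to 10060 (median 8299). From day 6 to day 8 the marker median was higher while that of the splicing genes was -0.11. From day 8 to days 11 and 14 both fell. The marker medians were 9487 and 7963 CPM there, and the splicing genes had -0.30 and -0.35. At day 18 the markers were below day 11, while the splicing genes had -0.13. Over libraries 1 to 6 of day 14 the marker sums were 7622, 6277, 4952, 8304, 9094 and 10490 CPM. From low to high, their order was that of the splicing medians given above, with library 3 lowest in both. At days 8, 11 and 18 the orders matched only in part. The lowest library was the same in both at days 8 and 11, and the highest at days 8 and 18. At day 11 library 3 was highest in markers, at 9874 CPM, and library 4 in splicing medians, at -0.19. At day 18 library 2 was lowest in markers, at 7354 CPM, and library 1 in splicing medians, at -0.21. Whether markers and splicing genes are linked was not tested.

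Other tissues shifted too. Intestinal markers, 10 genes, summed to 2764 to 3369 CPM at day 6, to 4619 to 7191 in libraries 1 to 3 and 2776 to 3159 in libraries 4 to 6 of day 14, and to 664 to 1963 at day 18. The 11 muscle markers went from 1796 to 3415 at day 6 to 561 to 1038 at day 18. The 28 major sperm protein genes that passed the filter on low counts went from 8.72 to 34.2 to 795 to 1803. Hypodermal markers, 6 genes, went from 1098 to 1696 to 312 to 723, and 10 neuronal ones from 511 to 636 to 491 to 582. Their part in the result was not tested.

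At the other ages the same split also changed the counts. At day 8, 14 genes were lower in libraries 1 to 3 and none in libraries 4 to 6, where 10.9 and 1.2 percent of all genes were lower and 11.9 and 1.95 percent higher. At day 11 the counts were 35 and 15, with all 15 among the 35, against 23.5 and 12 percent lower and 24.7 and 15.4 percent higher in all genes. At day 18, 22 were lower and 2 higher in libraries 1 to 3, and 9 lower and 5 higher in libraries 4 to 6. Of all genes, 25.9 percent were lower and 28.5 percent higher in the first, and 25.4 and 24.8 percent in the second. Lower in both sets at day 18 were lsm-1, lsm-4, lsm-8, prp-40, rnp-1, rsp-3, rsp-6, rsp-7 and snr-2, and higher in both were prp-6 and prp-21. With all 36 N2 day 6 libraries as controls, 15 genes were lower and 5 higher at day 8, against 24.9 and 20.5 percent of all genes. At day 18 they were 20 and 10, against 35.3 and 30.8 percent.

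Set against day 14, day 18 had 25 genes higher and 1 lower, where 27.5 percent of all genes were higher and 23.5 percent lower. The median log2 change was 0.24 for the 47 genes and 0.049 for all genes. All day 18 libraries exceeded all of day 14 for 6 genes, at a background share of 12.7 percent, and none lay wholly below, against 5.4 percent. The lower gene was rnp-9 (log2 -0.65, adjusted p = 0.00152).

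This comparison depended on the libraries fitted. With the 12 libraries of these ages alone, 8 of the 47 genes were higher, a share close to the 17.8 percent of all genes higher in that fit. In libraries 1 to 3 alone 44 genes were higher, and in libraries 4 to 6 alone 12 were, against 36.4 and 18.3 percent of all genes. The same fits called 1 gene lower each, against 25.2 and 15.9 percent. Without library 3 of day 14 the count was 17, without library 2 it was 18, and without library 5 or 6 it was 36. The 12 genes higher in both sets were lsm-5, lsm-6, lsm-7, prp-3, prp-6, prp-21, prp-39, rnp-6, rnp-7, rsp-7, sfa-1 and snr-7.

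Some members are neighbours in the WBcel235 assembly. On chromosome II, rsp-1 and rsp-2 point away from each other with 406 bases between them, as do snr-3 and rsp-5 with 403. Their log2 changes at day 14 were -0.44 and -0.14 for the first pair and -0.45 and -0.29 for the second. On chromosome IV, rnp-2 and rnp-3 lie 72 bases apart on 1 strand. They had -0.51 and -0.47 at day 11 but -0.37 and 0.00 at day 18, where only rnp-2 passed. Also on IV, sfa-1 and uaf-2 share a strand at a distance of 5788 bases and had -0.32 and -0.27 at day 14. No difference between neighbours was tested.

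Other splicing genes were taken from a list of 86 symbols outside the set, of which 81 were in the table and tested. Of these, 0 were higher and 8 lower at day 8, 4 and 31 at day 11, 4 and 43 at day 14, and 14 and 17 at day 18. Day 18 against day 14 gave 42 higher and 5 lower. Of all genes tested, 5.56 percent were higher and 6.1 lower at day 8, 24.1 and 19.9 at day 11, and 29.8 and 26.9 at day 14. At day 18 the shares were 29 and 28 percent, and for day 18 against day 14 they were 27.5 and 23.5 percent. The median log2 change of the 81 was -0.10, -0.19, -0.26 and 0.04 at the 4 ages.

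At day 18 the ELAV-type alternative splicing factor gene exc-7 stood at 18.0 to 20.6 CPM (median 18.8) against 9.70 to 13.9 (median 11.1), log2 0.75 ± 0.11 SE, adjusted p = 1.26e-06. The helicase gene emb-4, of the intron-binding kind, stood at 102 to 148 CPM (median 124) against 64.9 to 87.1 (median 73.6), log2 0.72 ± 0.11 SE, adjusted p = 2.97e-06. In both, all day 18 libraries were above all of day 6. The gene smi-1, whose protein binds the SMN protein that loads Sm rings, rose by log2 0.67 (adjusted p = 1.39e-05) and the helicase gene ddx-46 by 0.44 (adjusted p = 0.000148).

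Lower at day 18 was sym-2, which encodes an hnRNP F/H-type protein, at 3.72 to 4.74 CPM (median 4.49) against 6.91 to 9.79 (median 8.31), log2 -0.94 ± 0.12 SE, adjusted p = 6.01e-08. The groups did not overlap. With it hrpa-2 (log2 -0.44, adjusted p = 1.46e-05) and hrpf-1 (-0.47, adjusted p = 0.000194), both of the hnRNP class, and smu-2, a spliceosome component (-0.45, adjusted p = 0.000162), were lower.

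In CF1038, 24 of the 47 splicing genes were higher than in the second N2 set at day 6, 2 were lower and 21 did not pass, where 18 percent of all genes tested were higher and 20.7 percent lower. The median log2 change was 0.09, against -0.015 over all 16126 genes, and the highest was lsm-6 at 0.29. No gene of the set separated all 20 libraries from all 30, which 0.13 percent of all genes did upward and 0.453 percent downward.

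Lsm genes led, with 6 of 7 higher and a median of 0.19. The nuclear ring gene lsm-8 stood at 55.9 to 72.8 (median 63.4) CPM in CF1038 and 43.9 to 68.7 (median 56.1) in N2, and 19 of 20 CF1038 libraries lay above the N2 median (log2 0.18 ± 0.04 SE, adjusted p = 0.000186). For lsm-3 the levels were 34.1 to 45.8 (median 41.4) and 29.1 to 42.8 (median 35.2) CPM (log2 0.19 ± 0.04 SE, adjusted p = 0.000209), with 17 of 20 above the N2 median. Likewise lsm-7 stood at 61.1 to 99.3 (median 74.4) and 52.9 to 82.6 (median 62.8) CPM (log2 0.22 ± 0.05 SE, adjusted p = 0.000997), and lsm-4 at 67.8 to 111 (median 76.9) and 60.6 to 85.6 (median 69.2) (log2 0.19 ± 0.05 SE, adjusted p = 0.000705). The ranges of the strains overlapped in each.

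Of the Sm genes 5 of 7 were higher, with a median of 0.17, and snr-1 and snr-4 did not pass. SmE gene snr-6 stood at 144 to 177 (median 159) CPM in CF1038 and 106 to 174 (median 141) in N2 (log2 0.17 ± 0.04 SE, adjusted p = 0.000896). All 20 CF1038 libraries were above the N2 median. The same held for snr-2, at 357 to 472 (median 386) CPM and 274 to 492 (median 356) in N2 (log2 0.13 ± 0.05 SE, adjusted p = 0.0223).

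Among the SR genes 6 of 8 were higher, with a median of 0.14, and rsp-2 and rsp-7 did not pass. The ranges were 237 to 299 (median 262) CPM in CF1038 and 195 to 269 (median 243) in N2 for rsp-1 (log2 0.14 ± 0.03 SE, adjusted p = 0.000998). For rsp-6 they were 289.5 to 341 (median 310.4) and 233 to 326 (median 291) CPM (log2 0.13 ± 0.03 SE, adjusted p = 0.00112), with 19 of 20 libraries above the N2 median. The other SR genes called were rsp-3 (0.10), rsp-4 (0.15), rsp-5 (0.15) and rsp-8 (0.15), with adjusted p from 0.0102 to 0.0217. With the 6 time-course libraries of day 6 as controls, rsp-5 and rsp-8 turned to -0.11 and -0.05, neither passed. For rsp-2 and rsp-7 the 95 percent intervals were 0.00 to 0.15 and -0.03 to 0.10.

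None of sfa-1, uaf-1 and uaf-2 passed in CF1038. Their levels there were 102 to 179 (median 150.2), 148 to 211 (median 160) and 145 to 207 (median 183) CPM, and 107 to 172 (median 141), 137 to 204 (median 159) and 142 to 229.9 (median 173) CPM in N2. The strains overlapped almost wholly. The intervals of the log2 change were -0.03 to 0.17 for sfa-1 and -0.06 to 0.11 for both uaf genes. The PUF60 homologue rnp-6 also did not pass, at 149.6 to 189 (median 169.5) CPM and 140.2 to 189 (median 164) in N2.

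In the rnp group 4 of 9 were higher and rnp-9 was lower, at 1.36 to 3.63 (median 2.36) CPM in CF1038 and 1.62 to 5.13 (median 2.81) in N2 (log2 -0.30 ± 0.11 SE, adjusted p = 0.0224). PRP genes had 3 of 13 higher (prp-4, prp-18 and prp-19) and prp-9 lower, at 82.3 CPM or more in CF1038 (median 95.7) and 89.9 to 125 (median 99.6) in N2 (log2 -0.07 ± 0.03 SE, adjusted p = 0.046). Both of the lower genes overlapped widely between strains. The fall of prp-9 was called in none of 11 alternatives, and against the 6 time-course libraries of day 6 its log2 change was 0.06. For rnp-9 the change was -0.09, not passed, with N2 libraries 21 to 30 as controls.

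**Figure D5:**
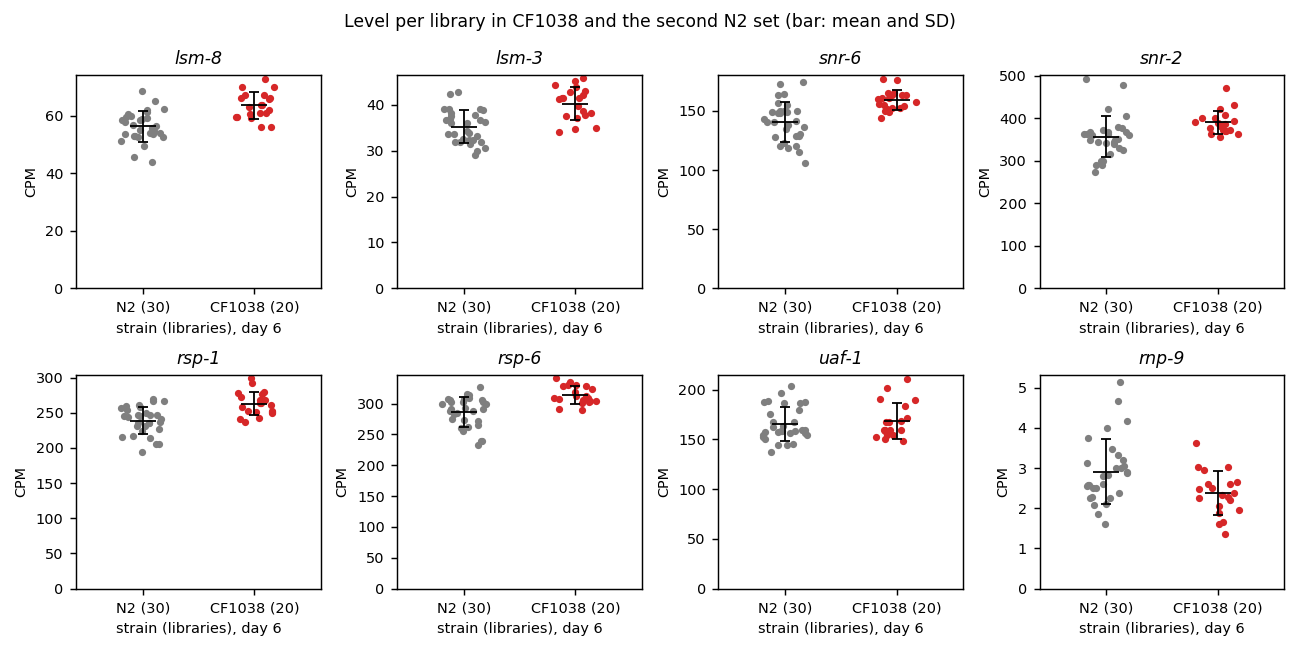
CPM of 8 genes in each day 6 library of the second N2 set (30) and of CF1038 (20), with bars for the mean and SD. The CF1038 points of snr-6 run from 144 to 177 CPM and those of N2 from 106 to 174, so the strains overlap, and uaf-1 shows no called difference.

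The count in CF1038 varied with the libraries used. With libraries 1 to 10 of both strains 19 genes were higher, and with libraries 11 to 20, 12 were, against 21.9 and 17.2 percent of all genes. Of these, 8 were called in both, namely lsm-1, lsm-3, lsm-4, lsm-7, lsm-8, prp-38, rsp-1 and rsp-5. All but prp-38 were among the 24 called with all libraries. With N2 libraries 21 to 30 as the controls 9 were higher, and with the 6 time-course libraries of day 6, 10, against 8.07 and 11 percent. Of the 24 genes, 8 were also called with N2 libraries 21 to 30. These were lsm-6, lsm-8, rsp-6, snr-2, snr-3, snr-5, snr-6 and snr-7. The calls of lsm-1, lsm-3, lsm-4, lsm-7, rsp-1 and rsp-5 were thus lost with those controls. With all 36 N2 libraries of day 6, 22 were higher and 1 lower, against 15.8 and 17.5 percent. Between the N2 sets themselves, 2 of the 47 were higher in the second (prp-21 and snr-1) and 3 lower (lsm-1, prp-38 and rsp-5), where 12.3 and 6.51 percent of all genes differed.

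Germline and oocyte markers summed to 9475 to 13370 CPM in CF1038 (median 11010) and to 6048 to 13030 (median 10260) in the second N2 set. Intestinal markers had 2472 to 5085 and 2435 to 5000, muscle 811 to 3129 and 1343 to 3715, hypodermis 194 to 1813 and 496 to 1508, neurons 461 to 706 and 466 to 877, and 26 sperm genes 14.2 to 61.2 and 8.02 to 34.8. All ranges overlapped. Their part in the result was not tested.

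The list of 81 other splicing genes had 12 higher and 4 lower in CF1038, with a median of 0.04. The 12 are 14.8 percent, below the 18 percent of all genes. By adjusted p, the first of those higher was smi-1, at 18.0 to 30.1 CPM (median 23.3) against 13.3 to 23.6 (median 18.5), log2 0.29 ± 0.06 SE, adjusted p = 0.000268. It was followed by isy-1 (log2 0.15, adjusted p = 0.000379), sna-1 (0.22, adjusted p = 0.000931) and mog-2 (0.12, adjusted p = 0.000958). Lower was the muscleblind gene mbl-1, an alternative splicing factor, at 7.09 to 11.8 CPM (median 9.47) against 7.71 to 14.6 (median 11.5), log2 -0.28 ± 0.05 SE, adjusted p = 6.4e-05. Also lower were exc-7 (-0.21, adjusted p = 0.00611), hrpa-2 (-0.26, adjusted p = 0.00846) and syf-3 (-0.08, adjusted p = 0.0290).

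Age and strain comparisons share no library, so their values can be set side by side. Of the 34 genes lower at day 14, 21 were higher in CF1038, which is 61.8 percent of the first list and 87.5 percent of the 24 genes higher in CF1038. Of all 47, 72.3 percent were lower at day 14 and 51.1 percent higher in CF1038. Among the 15736 genes tested in both fits, 34.2 percent of those lower at day 14 were higher in CF1038, and 53.3 percent of those higher in CF1038 were lower at day 14. Whether the overlap is particular to the splicing genes was not tested. The sizes differed: snr-2 had -0.78 at day 14 and 0.13 in CF1038, and lsm-8 -0.59 and 0.18. Exceptions included rsp-7 and prp-40, which fell at day 14 by 0.56 and 0.47 and had 0.03 and -0.04, not passed, in CF1038.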

How the data were processed

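For each of 80 libraries the authors deposited expected counts per gene. FastQC, STAR 2.7.11b, RSEM 1.3.3 and the WBcel235 build were used, per the submitters' processing notes. The library kit, strandedness and annotation release were not found in these notes or the labels. RSEM shares reads that match several genes among them. Of the values 2.73 percent were not whole, within a tolerance of 1e-06, and all were rounded. Symbols, coordinates and exon lengths came from an Ensembl WBcel235 annotation, which named 44017 of 46904 gene IDs.

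The 30 time-course libraries were fitted together, and CF1038 with the second N2 set, in edgeR 4.0.16 (filterByExpr with a minimum count of 10, TMM, robust quasi-likelihood F test, 2-sided). Adjusted p-values are Benjamini-Hochberg over all tested genes, called under 0.05. The SE of a log2 change was taken as its size over the root of the F statistic. CPM are TMM-scaled counts per 1e+06. R 4.3.3, DESeq2 1.42.0, Python 3.11.15 and matplotlib 3.10.9 were also used. The fits were tested on simulated counts with known changes in 200 randomly picked genes. Of 1.25-fold changes, 14 percent were recovered at day 18 and 56 percent in CF1038. Of all calls, 8.4 and 7.3 percent were false. These shares are for randomly picked genes and do not give the recovery or the false calls among the splicing genes. At day 18 only 200 of 16710 genes were changed, while the real data had 29 percent called higher and 28 percent lower. With fewer changed genes the adjusted cutoff is stricter. The median coefficient of variation at day 18 also differed, at 16.9 percent over all genes and 8.91 percent over the splicing genes. A gene that did not pass may still have changed by a small amount.

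Members, lists and tests were chosen with earlier results of these data known. Named genes are the 6 per direction with the smallest adjusted p at day 18 and in CF1038, the 3 at days 8, 11 and 14, and sfa-1, uaf-1, uaf-2, rnp-6 and every rsp gene. From the other splicing genes they are the 4 per direction at day 18 and in CF1038. Other members were named beside their role. The comparison of day 18 with day 14 was added after seeing the data. No library pair of a group was identical. Replicate numbers were not treated as pairs. All libraries carry the same batch label.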

Additional observations from a re-analysis of the deposited data

Results flagged for a closer look

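In 3 of the 130 groups of 6 libraries examined, 1 library lay far from the other 5 by Dixon's 95 percent critical value for its gap to the nearest over the range. Chance alone gives about 1 in 20. At day 8, library 3 was the lowest for rsp-2, at 182.2 CPM, and for rsp-5, at 140.2 CPM. At day 14, library 5 was the highest for uaf-1, at 222.9 CPM.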

How the results depend on the processing

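Over the alternatives other than leaving out a library, 982 values of named genes stayed on their side of the threshold with no called value changing sign, 86 lost the call, 35 gained one and 6 changed sign, all in CF1038: prp-9 to 0.01 with libraries 1 to 10 and 0.06 with the 6 time-course controls, rsp-5 to -0.11 and rsp-8 to -0.05 with those controls, and hrpa-2 to 0.01 with N2 libraries 21 to 30 and 0.08 with the 6 controls. The cause was not tested. Genes lower at day 8 were 5, but 3 with RLE size factors, 11 with library totals, 14 and 0 in libraries 1 to 3 and 4 to 6, 15 with all 36 N2 day 6 controls and 15 with the 12 libraries alone, and 5 were then higher with the 36 controls. Library totals moved the median of all genes at day 8 to -0.11 and for day 18 against day 14 to 0.15. In libraries 4 to 6, 15 were lower at day 11, and 14 lower and 0 higher at day 14. At day 18, lower genes were 8 with library totals, 22 in libraries 1 to 3 and 9 in libraries 4 to 6, and higher ones 2 in libraries 1 to 3 and 10 with the 36 controls. For day 18 against day 14, 44, 12 and 8 were higher in libraries 1 to 3, libraries 4 to 6 and the 12 libraries alone. In CF1038, 12 were higher with libraries 11 to 20, 9 with N2 libraries 21 to 30 and 10 with the 6 controls. The lower count of 2 was 1 with RLE, library totals, no filter, DESeq2, libraries 1 to 10, libraries 11 to 20, N2 21 to 30, all 36 controls and the 6 controls.

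Leaving out 1 library at a time left the day 8 count of lower genes between 3 and 6, that of day 11 between 22 and 29, that of day 14 between 31 and 38 and that of day 18 between 11 and 15. Higher genes were 3 to 5 for day 18 and 17 to 36 for day 18 against day 14. The day 8 count was 3 without library 2, 3 or 5 of day 6 or library 1, 3 or 4 of day 8. With the replicate number as a block, the lower counts were 5, 30, 36 and 14 at days 8, 11, 14 and 18, 29 genes were higher at day 18 than at day 14, and CF1038 had 29 higher and 3 lower, against 27 and 3 for the same 40 libraries without the block. The numbers share no stated origin, and correlations between same-numbered libraries ran from -0.37 to 0.69 (median 0.27) between strains, from -0.22 to 0.10 between day 6 and older ages and from 0.09 to 0.45 between days 14 and 18. Own numbers correlated best in 5 of 20 libraries between strains and in 0 to 3 of 6 between ages. Gene-level counts do not show isoforms.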
